A study of Homo sapiens with 36 samples.

Results

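Matrix metalloproteases (MMPs) are zinc-dependent enzymes that cut the proteins of the extracellular matrix, and the tissue inhibitors of metalloproteases (TIMPs) are small secreted proteins that bind and block them. The genes described here are 10 of the 19137 gene symbols in the deposited tables. They are the interstitial collagenase MMP1, the stromelysins MMP3 and MMP10, the gelatinases MMP2 and MMP9, the membrane-anchored MMP14, the secreted proteoglycan-cutting protease ADAMTS1 and the inhibitors TIMP1, TIMP2 and TIMP3. They were chosen by symbol, and the transcript with the highest mean count over all 36 libraries stood for each gene. MMP1 and MMP2 had 2 transcripts each in the tables and the other members had 1.

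Most MMPs are secreted as inactive proenzymes that are opened by plasmin or by other MMPs, so that message and footprint levels describe the supply of enzyme and not its activity. MMP1 cuts fibrillar collagens, MMP3 and MMP10 cut a wide range of matrix proteins and can activate other proenzymes, and MMP2 and MMP9 cut denatured collagen and basement-membrane collagen. MMP14 sits in the plasma membrane, cuts collagen at the cell surface and, with TIMP2 as a bridge, activates the proenzyme of MMP2. TIMP3 differs from the other inhibitors in that it binds to the matrix and also blocks several ADAM and ADAMTS proteases. Fibroblasts are a main source of these proteins in connective tissue.

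Ribosome profiling sequences the stretches of messenger RNA that are covered by ribosomes. Those reads, called footprints, were set beside RNA sequencing of the same kinds of cells in 36 libraries, 15 from 3 derivatives of the human skin fibroblast line BJ and 21 from the human breast epithelial line MCF10A-ER-Src. The BJ derivatives are labelled ELR, EL and EH, and the labels give no genotype behind these letters. As background, lines of this design carry oncogenic HRAS on top of the SV40 early region and telomerase (ELR), the early region and telomerase (EL) or telomerase without the early region (EH). Each letter code names 1 line. In MCF10A-ER-Src cells the Src kinase is fused to a hormone-binding receptor domain and is switched on by 4-hydroxy-tamoxifen, given at 1 µM for 1, 4 or 24 h. The uninduced libraries are the 0 h library and the libraries from cells given ethanol for 1, 4 or 24 h. Footprints were collected under cycloheximide (100 µg/ml for 90 s), which stalls ribosomes along the message, or under harringtonine (2 µg/ml for 5 min), which holds new ribosomes at the start codon while the others run off. Each BJ line has 2 cycloheximide, 2 harringtonine and 1 RNA library. The ER-Src cells have 2 cycloheximide libraries and 1 RNA library at each induced time, 4 uninduced libraries of each of these kinds, and 4 harringtonine libraries at 0, 1, 4 and 24 h.

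Levels are given as CPM, the count of a gene divided by the scaled size of its library. Sizes were scaled separately within each cell model and assay, so CPM of different models or assays are not on a shared scale. A change is the log2 ratio of the first group to the second with its SE, and genes count as called where edgeR's quasi-likelihood test gave a Benjamini-Hochberg adjusted p, over all genes tested, under 0.05. The labels leave unsaid whether replicates came from separate cultures, and p-values measure only the spread between these libraries, which may be technical. Between BJ replicates that spread was small, with a biological coefficient of variation of 1.80% under cycloheximide, against 13.9% in the ER-Src cycloheximide libraries. Total counts ranged from 1178012 to 2606344 in the BJ cycloheximide libraries and from 129175 to 214806 in the BJ harringtonine libraries. In the ER-Src libraries they ranged from 1334866 to 3628073 under cycloheximide and from 2225844 to 3008760 in RNA. Both cell labels were checked against markers. In cycloheximide footprints, 10 fibroblast markers summed to 10770 to 39500 CPM in the BJ lines and to 950.6 to 1588 CPM in the ER-Src cells, where COL1A2, COL3A1 and THY1 had none and VIM reached 1540 CPM. Over the same libraries, 10 epithelial markers summed to 9141 to 17350 CPM in the ER-Src cells and to 849 to 1337 CPM in the BJ lines, where KRT5 and CDH1 had none and KRT18 reached 1020 CPM.

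In the GENCODE release 44 annotation mapped to GRCh37, MMP10 (chr11:102641233-102651359), MMP1 (chr11:102660132-102668891) and MMP3 (chr11:102706532-102714340) lie in this order on the minus strand of chromosome 11, each with 10 coding exons. MMP2 lies at chr16:55423612-55540603, MMP9 at chr20:44637547-44645200, MMP14 at chr14:23305769-23318250, TIMP1 at chrX:47441807-47446188 and TIMP3 at chr22:33197691-33259028, all on the plus strand. TIMP2 (chr17:76849059-76921469) and ADAMTS1 (chr21:28208074-28217728) lie on the minus strand. No other annotated gene overlaps a coding exon of any member. MMP3 and MMP10 are close relatives, and 9.76% of the 28-base windows of the MMP3 coding sequence occur without a mismatch in that of MMP10. With at most 1 mismatch the share was 17.6%. Reads from such windows could be counted in either gene, so the low levels of MMP10 beside those of MMP3 are uncertain to that extent. The share was 0 for the other pairs of members examined.

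In EL against EH fibroblasts, footprints of 9 of the 9 members that could be tested fell. The background was high, since 41.5% of all 9996 genes tested were called and 22.4% were lower. The members' median change was -2.34 on the log2 scale, against -0.01 over all genes tested. MMP9 had too few reads to be tested. MMP10 passed edgeR's filter on low counts only through its EH libraries, so its fall followed from that filter. It is included in the count and the median above. Fibroblast markers moved with these changes: 10 of 10 fell, their summed footprints came to 13970 to 14010 CPM in EL against 38360 to 39500 CPM in EH, and none of the 10 was at 0 in either line. Their part in the members' changes was not tested. In such bulk samples, fewer cells that make a message and less message per cell cannot be told apart.

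**Figure D1:**
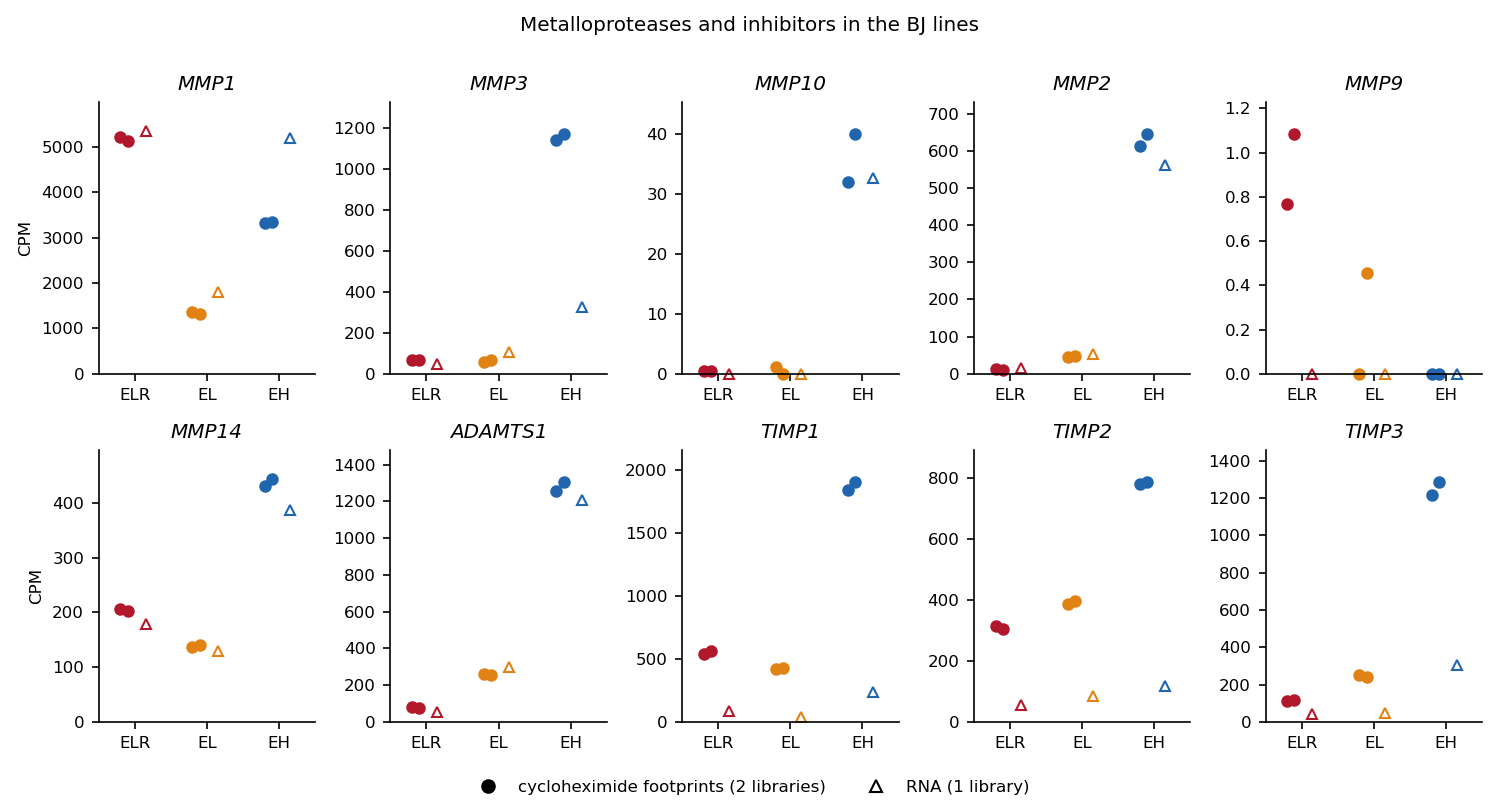
Levels of the 10 members in the ELR, EL and EH derivatives of BJ fibroblasts, in CPM on linear axes that differ between panels; filled circles are the 2 cycloheximide footprint libraries of a line and open triangles its 1 RNA library. Footprints were highest in EH for every member other than MMP1 and MMP9, and MMP1 was highest in ELR at 5229 and 5140.0 CPM.

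The collagenase MMP1 was the one member tested whose footprints were highest in ELR. Its footprints were at 5229 and 5140.0 CPM in ELR, 1373 and 1315 CPM in EL, and 3327 and 3338 CPM in EH. No line overlapped another, and ELR was the highest and EL the lowest. Relative to EL, MMP1 rose in ELR by 1.94 ± 0.03 on the log2 scale (edgeR adjusted p = 1.98e-61). Relative to EH, it rose in ELR by 0.61 ± 0.03 (edgeR adjusted p = 1.34e-31) and changed in EL by -1.33 ± 0.03 (edgeR adjusted p = 9.72e-49). The single RNA libraries gave 5347 CPM in ELR, 1796 CPM in EL and 5195 CPM in EH. The MMP1 message was thus at nearly the same level in ELR as in EH, with a ratio of 1.03 (95% counting interval 1.00 to 1.06), while the footprints differed.

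The stromelysin MMP3 stayed low in ELR. It had 68.5 and 66.0 CPM of footprints in ELR, 58.9 and 68.9 CPM in EL, and 1145 and 1173 CPM in EH. EH stood far above both other lines, and the ELR and EL libraries overlapped. MMP3 changed in EL relative to EH by -4.21 ± 0.07 (edgeR adjusted p = 2.06e-58), and ELR differed from EL by 0.08 ± 0.12 (edgeR adjusted p = 0.633). MMP3, which lies near MMP1 on chromosome 11, thus had no called change where MMP1 rose; the difference between these changes was not tested. MMP10, the third of these genes on chromosome 11, was nearly absent outside EH. It had 1 footprint count in each ELR library, 3 and 0 counts in the EL libraries, and 44 and 45 counts in the EH libraries. The ratio of EH to EL was 57.6 (95% counting interval 19.1 to 284), and the ratio of EH to ELR was 79.4 (21.3 to 665). In RNA, MMP10 had no count in ELR or EL and 72 counts in EH, so that it was at least 28.9-fold lower in ELR and at least 23.6-fold lower in EL than in EH, against a floor of 3 counts per library. These intervals and floors cover counting error only.

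The gelatinase MMP2 fell in 2 steps. Its footprints were at 12.2 and 9.20 CPM in ELR, 45 and 48.5 CPM in EL, and 614 and 645 CPM in EH. No line overlapped another. MMP2 changed in EL relative to EH by -3.77 ± 0.09 (edgeR adjusted p = 2.04e-49) and in ELR relative to EL by a further -2.08 ± 0.20 (edgeR adjusted p = 1.75e-14). RNA followed the same order, with 15.1 CPM in ELR, 52.2 CPM in EL and 563 CPM in EH. MMP9, the other gelatinase, had 2 and 2 footprint counts in ELR, 0 and 1 in EL and 0 and 0 in EH, and no RNA count in any of the 3 lines. At this depth no difference in MMP9 between the lines was detectable.

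MMP14, the membrane-anchored activator of MMP2, was also highest in EH, and its ELR libraries lay above those of EL. It had 206 and 203 CPM of footprints in ELR, 138 and 140.0 CPM in EL, and 431 and 443 CPM in EH. MMP14 changed in EL relative to EH by -1.67 ± 0.07 (edgeR adjusted p = 5.36e-32) and was higher in ELR than in EL by 0.55 ± 0.08 (edgeR adjusted p = 5.58e-09). ADAMTS1, which cuts aggrecan and versican, fell in 2 steps like MMP2. It had 82.7 and 77.9 CPM in ELR, 258 and 253 CPM in EL, and 1259 and 1305 CPM in EH. The change was -2.34 ± 0.05 in EL relative to EH (edgeR adjusted p = 6.45e-51) and -1.67 ± 0.08 in ELR relative to EL (edgeR adjusted p = 3.98e-29). Its RNA had the same order, at 54.0 CPM in ELR, 298 CPM in EL and 1208 CPM in EH.

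The 3 inhibitors were all highest in EH, and they parted between ELR and EL. TIMP1, the soluble inhibitor that cytokines induce in many cell types, had 537 and 561 CPM of footprints in ELR, 418 and 431 CPM in EL, and 1836 and 1901 CPM in EH. TIMP2 had 314 and 305 CPM in ELR, 387 and 396 CPM in EL, and 781 and 789 CPM in EH. TIMP3 had 111 and 115 CPM in ELR, 252 and 241 CPM in EL, and 1214 and 1285 CPM in EH. No 2 lines overlapped for any of the inhibitors, and the share of all genes without overlap was not counted. In EL relative to EH, TIMP1 changed by -2.16 ± 0.04, TIMP2 by -1.02 ± 0.05 and TIMP3 by -2.36 ± 0.05, with edgeR adjusted p of 1.79e-53, 1.32e-28 and 1.55e-50. TIMP2 had the smallest change of the 9 members. In ELR relative to EL, TIMP1 rose by 0.36 ± 0.05, TIMP2 fell by 0.34 ± 0.05 and TIMP3 fell by 1.13 ± 0.08, with edgeR adjusted p of 1.37e-09, 3.24e-07 and 1.83e-21.

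In ELR against EL, 7 of 9 tested members were called, 3 higher (MMP1, MMP14 and TIMP1) and 4 lower (MMP2, ADAMTS1, TIMP2 and TIMP3), where 36.1% of all genes tested were called (17.3% higher, 18.8% lower). With the spread taken from all 16 cycloheximide libraries, MMP14, TIMP1 and TIMP2 lost their calls (edgeR adjusted p = 0.106, 0.168 and 0.0811), and 4 members stayed called. In ELR against EH, 9 of 9 members were called, MMP1 higher and the other 8 lower, where 53.4% of all genes were called (25.6% higher, 27.8% lower). The 2 largest differences of these were those of MMP10 (-6.15 ± 0.52) and MMP2 (-5.86 ± 0.12). MMP10 passed the filter through EH only, so its direction here followed from the filter. The members' median change in ELR relative to EL was -0.34, with called changes in both directions. Fibroblast markers were mostly lower there, 9 of 10 in ELR relative to EL, with a median change of -4.49 over the 10. Their summed footprints came to 10770 to 11010 CPM in ELR, where PDGFRA and DCN had no footprint. Their part in the members' changes was not tested. Leukocyte markers summed to 119 to 134 CPM in ELR, 139 to 146 CPM in EL and 106 to 118 CPM in EH, and MPO, CD3E and MS4A1 had no footprint in any of the lines. Endothelial markers summed to 34.8 to 36.8 CPM in ELR against 3.63 to 5.67 CPM in EL, all of it TIE1 in ELR, where the other 7 of 8 had no footprint, and PECAM1 and CDH5 had none in any of the lines.

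**Figure D2:**
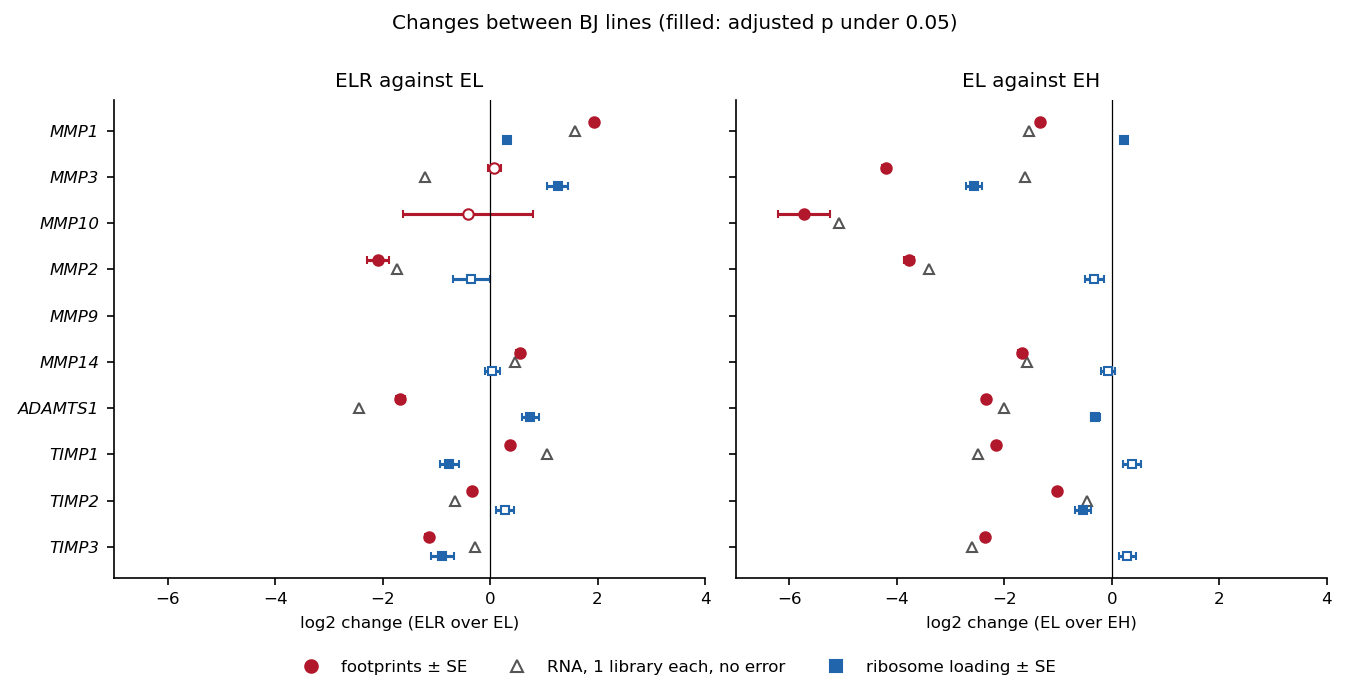
Log2 changes of each member in ELR over EL (left) and EL over EH (right), for cycloheximide footprints and ribosome loading with their SE as bars, filled where the adjusted p was under 0.05, and for the single RNA libraries without error. For EL over EH every footprint point lies below 0, while for ELR over EL the footprints of MMP1 lie highest at 1.94 and those of MMP2 lowest at -2.08.

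The RNA libraries of the BJ lines, 1 per line and so without a replicate check, gave the same directions for most members. On the log2(CPM + 1) scale, 8 of 9 members with at least 10 CPM in either library were at least 2-fold lower in EL than in EH, where 13.5% of all genes differed by that much in either direction. TIMP2 was the exception, at 85.9 CPM in EL against 119 CPM in EH. In ELR against EL, 5 of 8 members differed by at least 2-fold, where 10.3% of all genes did. MMP1 and TIMP1 were higher and MMP2, MMP3 and ADAMTS1 were lower in ELR. In ELR against EH, 8 of 9 were at least 2-fold lower, where 19% of all genes differed by that much, and MMP1 was the exception. MMP10 reached 10 CPM only in EH, so in the comparisons with EH it could count only as lower.

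Other genes of the pathway were counted by list and read against the shares of all genes, 22.4% lower in EL relative to EH and 17.3% higher and 18.8% lower in ELR relative to EL. Of 10 genes on a list of other inhibitors, 6 could be tested and 6 fell in EL relative to EH, among them RECK, a membrane-anchored inhibitor of MMPs (-3.08 ± 0.19), and the collagen-processing enhancer PCOLCE (-2.21 ± 0.06). Of 19 matrix substrates, 17 were tested, and 14 of them fell in EL relative to EH, among them the collagen chains COL1A2 (-3.30 ± 0.03) and COL1A1 (-2.77 ± 0.03). Of 17 other MMPs, 3 were tested and 2 fell, MMP19 (-1.06 ± 0.24) and MMP17 (-1.25 ± 0.37). In ELR relative to EL, 13 of the 17 tested substrates fell and 2 rose. Of 9 tested activators of proenzymes and their regulators, 2 rose and 4 fell in ELR relative to EL, and PLAU, the urokinase that makes plasmin, rose by 2.61 ± 0.08 (edgeR adjusted p = 1.36e-41). Of 13 tested AP-1 and ETS transcription factors, 8 rose and 3 fell, and the risers included FOSL1 (0.90 ± 0.06), ETV4 (2.75 ± 0.32) and ETV1 (3.08 ± 0.38). Of 15 tested ADAM and ADAMTS proteases, 11 fell in ELR relative to EL and ADAM8 rose by 7.80 ± 0.87.

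After 24 h of Src induction, footprints of 5 of 8 tested members were called, MMP1, MMP3, MMP14 and TIMP1 higher and TIMP3 lower, where 14.6% of all 10193 genes tested were called (8.8% higher, 5.84% lower). The members' median change was 0.73, against -0.01 over all genes tested. MMP1 passed the filter on low counts only through its 24 h libraries, so its rise followed from that filter. MMP2 and MMP10 had too few reads to be tested, with at most 3.96 CPM and 1.5 CPM in any cycloheximide library. After 1 h no member was called, with 1 at an unadjusted p under 0.05 and 0 called by DESeq2, where 0.0196% of all genes were called. After 4 h no member was called by the main edgeR fit or by DESeq2, with 2 at an unadjusted p under 0.05. Of all genes, 0.854% were called there (0.834% higher). An edgeR fit with a replicate block called TIMP3 lower at 4 h (-0.70, edgeR adjusted p = 0.0257).

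**Figure D3:**
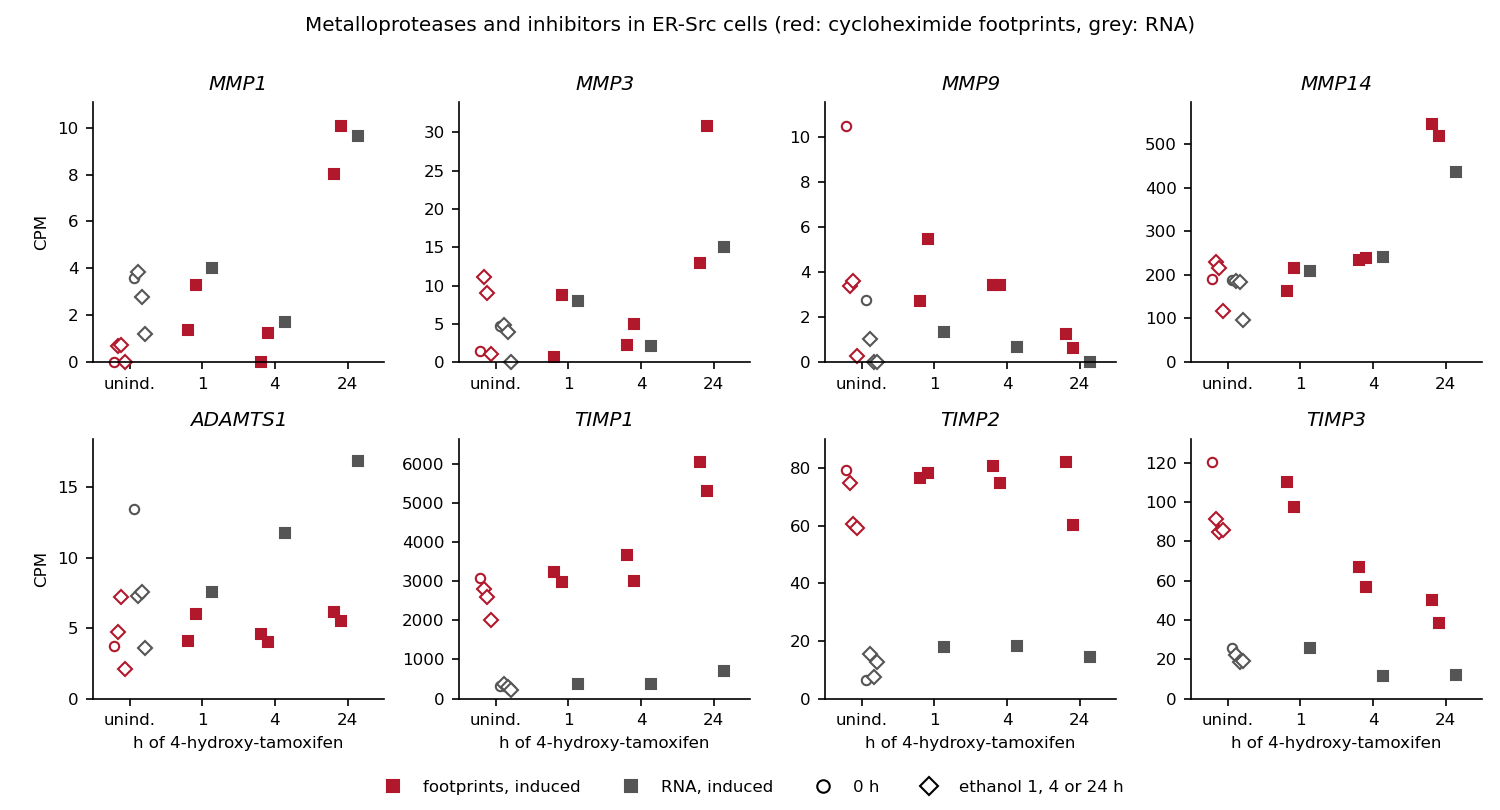
Levels of 8 members in MCF10A-ER-Src cells, uninduced and after 1, 4 and 24 h of 4-hydroxy-tamoxifen, in CPM on linear axes that differ between panels, with 1 point per library (red for cycloheximide footprints, grey for RNA, open circles for 0 h and open diamonds for ethanol). At 24 h the footprints of MMP14 lie at 545 and 519 CPM and those of TIMP1 at 6037 and 5313 CPM, above every uninduced library, and those of TIMP3 at 50 and 38.4 CPM, below every uninduced library.

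MMP14 had the smallest adjusted p of the members at 24 h. Its footprints were at 191 CPM at 0 h and at 228, 216 and 118 CPM after 1, 4 and 24 h of ethanol, at 164 and 217 CPM after 1 h of 4-hydroxy-tamoxifen, 235 and 238 CPM after 4 h, and 545 and 519 CPM after 24 h. The 24 h libraries stood above every other, and the ethanol library of 24 h was the lowest. MMP14 rose at 24 h relative to the uninduced libraries by 1.48 ± 0.20 (edgeR adjusted p = 7.38e-05), and by 1.31 without that ethanol library (edgeR adjusted p = 4.62e-06). RNA gave 436 CPM at 24 h against 97.0 to 189 CPM in the 4 uninduced libraries, a rise of 1.41 ± 0.25 (edgeR adjusted p = 0.00293). The single induced RNA library at each time was assumed to vary like the uninduced ones. DESeq2 did not call MMP14 in RNA (adjusted p = 0.0727).

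TIMP1 rose with MMP14. Its footprints were at 3071 CPM at 0 h and at 2801, 2598 and 2015 CPM after 1, 4 and 24 h of ethanol, at 3239 and 2992 CPM after 1 h of induction, 3662 and 3015 CPM after 4 h, and 6037 and 5313 CPM after 24 h. The rise at 24 h was 1.10 ± 0.16 (edgeR adjusted p = 0.000141) in footprints and 1.26 ± 0.20 (edgeR adjusted p = 0.00119) in RNA, which was at 714 CPM at 24 h against 221 to 373 CPM in the uninduced libraries. MMP14 and TIMP1 were the 2 members called in RNA at 24 h, where 6.47% of all genes were called (4.67% higher, 1.8% lower), and with the 0 h library alone as the reference neither was called (edgeR adjusted p = 0.101 and 0.0513). At 1 and 4 h edgeR called 0 of 8 members in RNA, with 0 and 1 at an unadjusted p under 0.05 and 0 called by DESeq2, where 0.00942% and 0.16% of all genes were called. TIMP3 moved the other way. It had 120.5 CPM of footprints at 0 h and 91.2, 84.6 and 85.8 CPM after 1, 4 and 24 h of ethanol, 110.0 and 97.6 CPM after 1 h of induction, 67.1 and 56.6 CPM after 4 h, and 50 and 38.4 CPM after 24 h. From 4 h on, every induced library lay below every uninduced one. The change was -0.62 ± 0.18 at 4 h (edgeR adjusted p = 0.188) and -1.14 ± 0.18 at 24 h (edgeR adjusted p = 0.000493). TIMP3 RNA was at 12.2 CPM at 24 h against 18.8 to 25.8 CPM uninduced, and its change of -0.81 ± 0.35 was not called (edgeR adjusted p = 0.218). TIMP2 footprints lay at 82.2 and 60.3 CPM at 24 h, within or just above the range of 59.2 to 79.3 CPM in the uninduced libraries, and differed by 0.03 ± 0.17 (edgeR adjusted p = 0.934).

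The interstitial collagenase was close to the limit of detection in these epithelial cells. MMP1 had 13 and 33 footprint counts at 24 h (8.03 and 10.1 CPM), against 0, 2, 2 and 0 counts in the uninduced libraries at 0 h and after 1, 4 and 24 h of ethanol. Both 24 h libraries lay above every other cycloheximide library of these cells. MMP1 passed the filter through these 24 h libraries only, so its direction followed from the filter. The change was 4.44 ± 0.67 (edgeR adjusted p = 0.000267), and with the 0 h library alone as the reference it missed the threshold (edgeR adjusted p = 0.0602). MMP3 had 13.0 and 30.8 CPM at 24 h, against 1.5, 11.1, 9 and 1.053 CPM in the uninduced libraries. The 24 h libraries lay above the uninduced ones but differed from each other more than 2-fold. Its call at 24 h (1.92 ± 0.61, edgeR adjusted p = 0.0470) rested on single libraries: without the second 24 h replicate the change was 1.13 (edgeR adjusted p = 0.545), and DESeq2 did not call it (adjusted p = 0.347). MMP9 was not called at 24 h, and its direction depended on 1 library, that of 24 h of ethanol. Against that library alone MMP9 changed by 1.47 on the log2 scale. It had 1.24 and 0.609 CPM at 24 h, against 10.5 CPM at 0 h and 3.38, 3.60 and 0.263 CPM after ethanol (edgeR adjusted p = 0.219), so that the spread of the uninduced libraries spanned the 24 h values, and without the 24 h ethanol library it was called lower (-2.54, edgeR adjusted p = 0.0239). ADAMTS1 stayed between 2.11 and 7.20 CPM in every cycloheximide library.

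Set against 1 h of induction, 24 h gave a called difference for MMP14 (1.46 ± 0.24, edgeR adjusted p = 0.000975), TIMP1 (0.84 ± 0.19, edgeR adjusted p = 0.00718) and TIMP3 (-1.27 ± 0.21, edgeR adjusted p = 0.000864), where 13.6% of all genes were called (7.77% higher, 5.88% lower). That background of 1391 genes fell to 488 without the second 1 h replicate and to 761 and 554 without the first and second 24 h replicates. The call of TIMP1 was lost without the first 24 h replicate (edgeR adjusted p = 0.0554) or the second 1 h replicate (edgeR adjusted p = 0.0825). Markers of the cell types were measured beside these changes. Epithelial markers summed to 14520 to 17350 CPM of footprints at 24 h against 9141 to 13130 CPM uninduced, with 5 of 10 called higher and 1 lower. Of 10 leukocyte markers 3 could be tested and 2 were called higher at 24 h, CD14 and CD68, with sums of 126 to 151 CPM at 24 h against 54.7 to 74.3 CPM uninduced, while PTPRC, the common leukocyte antigen, had no footprint. Fibroblast markers summed to 950.6 to 1001 CPM at 24 h against 1305 to 1588 CPM uninduced, without overlap, and of 4 tested DCN was called higher and VIM lower. Their part in the members' changes was not tested.

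RefSeq's table for GRCh38.p14 held 4 of the 10 members, each with 250 bases before and 50 after the annotated start. The windows show the start regions of TIMP1 and MMP14, whose footprints rose under Src, of TIMP3, whose footprints fell, and of MMP10, which had few reads outside EH among the BJ lines. They lie at chrX:47582186-47582485 (plus strand) for TIMP1, chr14:22836335-22836634 (plus strand) for MMP14, chr22:32801455-32801754 (plus strand) for TIMP3 and chr11:102780579-102780878 (minus strand) for MMP10. Capitals mark matches, on either strand, to the motifs searched: the AP-1 element TGANTCA, its variant TGAGTAA, the STAT element TTCNNNGAA, the GC box GGGCGG and the TATA box TATAAA.
TIMP1: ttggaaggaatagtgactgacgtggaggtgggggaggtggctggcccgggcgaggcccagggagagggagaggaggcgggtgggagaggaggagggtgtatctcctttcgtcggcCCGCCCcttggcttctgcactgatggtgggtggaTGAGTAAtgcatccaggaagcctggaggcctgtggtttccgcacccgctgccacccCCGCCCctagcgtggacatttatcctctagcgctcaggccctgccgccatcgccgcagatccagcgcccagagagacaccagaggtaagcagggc
MMP14: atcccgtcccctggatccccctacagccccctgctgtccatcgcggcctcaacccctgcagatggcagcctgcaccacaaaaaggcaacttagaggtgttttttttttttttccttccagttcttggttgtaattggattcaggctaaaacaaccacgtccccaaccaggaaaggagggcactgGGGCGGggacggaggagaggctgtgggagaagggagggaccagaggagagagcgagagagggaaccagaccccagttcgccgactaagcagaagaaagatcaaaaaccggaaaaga
TIMP3: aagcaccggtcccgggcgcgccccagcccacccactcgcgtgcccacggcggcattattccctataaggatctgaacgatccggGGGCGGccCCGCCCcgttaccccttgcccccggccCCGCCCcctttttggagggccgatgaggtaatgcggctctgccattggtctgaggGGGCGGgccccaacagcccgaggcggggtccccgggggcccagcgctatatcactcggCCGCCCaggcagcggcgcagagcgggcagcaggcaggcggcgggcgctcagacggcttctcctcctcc
MMP10: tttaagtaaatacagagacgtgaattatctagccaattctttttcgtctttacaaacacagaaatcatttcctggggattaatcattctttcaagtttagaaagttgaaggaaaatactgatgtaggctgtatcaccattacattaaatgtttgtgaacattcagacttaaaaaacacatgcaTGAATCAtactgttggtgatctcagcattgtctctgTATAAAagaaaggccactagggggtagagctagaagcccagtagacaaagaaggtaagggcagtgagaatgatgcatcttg
TIMP1 holds TGAGTAA at position -101 from the start, a motif found in 2.57% of the 35116 promoters searched, and 2 GC boxes. MMP14 holds 1 GC box at -66 and TIMP3 holds 5, where 45% of promoters hold at least 1. MMP10 holds TGANTCA at -67, found in 7.71% of promoters, and TATAAA at -31, found in 11.5%. None of the 4 windows holds TTCNNNGAA, which 7.66% of promoters do. The GC content was 65.0% for TIMP1, 55.0% for MMP14, 72.7% for TIMP3 and 36.3% for MMP10. A match is a description of these letters and not a measured site, and no link between a motif and a change was tested.

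At 24 h of Src, other genes of the pathway were likewise counted by list, where 8.8% of all genes tested were higher and 5.84% lower. Of 28 ADAM and ADAMTS proteases, 11 could be tested and 4 rose, among them the aggrecanase ADAMTS4 (6.73 ± 0.48), ADAMTS9 (5.43 ± 0.49) and ADAM19 (3.55 ± 0.31). Of 11 tested activators and their regulators, 3 rose and 2 fell. The risers were the cathepsin CTSB (3.16 ± 0.18), SERPINE2, an inhibitor of plasminogen activators (2.52 ± 0.23), and PLAUR, the urokinase receptor (1.37 ± 0.27). Of 13 tested AP-1 and ETS factors, 5 rose, among them FOS (2.93 ± 0.29), ETS2 (2.76 ± 0.26) and JUNB (2.09 ± 0.22). Of 11 tested substrates, 2 rose, tenascin C (TNC, 3.5 ± 0.40) and decorin (DCN, 2.31 ± 0.40). None of the 3 other inhibitors tested was called by edgeR, and MMP28, the 1 other MMP with enough reads, fell by 1.79 ± 0.35.

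Ribosome loading is the change in footprints beyond that in RNA, tested as an interaction term. Between the BJ lines, MMP3 had the largest change in loading among the members called. Its loading changed in EL relative to EH by -2.56 ± 0.15 (edgeR adjusted p = 3.02e-24). Its RNA was at 106 CPM in EL against 327 CPM in EH, a smaller difference than that in footprints. In ELR its loading was higher than in EL by 1.26 ± 0.20 (edgeR adjusted p = 6.29e-06). MMP1 loading rose in EL relative to EH by 0.23 ± 0.05 and in ELR relative to EL by 0.32 ± 0.05 (edgeR adjusted p = 0.000747 and 1.11e-06). In ELR relative to EL, loading of ADAMTS1 was higher by 0.75 ± 0.16 and that of TIMP1 and TIMP3 changed by -0.76 ± 0.18 and -0.89 ± 0.21 (edgeR adjusted p = 0.000998, 0.00456 and 0.00556). In all, 4 members were called in EL against EH, 5 in ELR against EL and 5 in ELR against EH, where 6.71%, 2.97% and 7.48% of all genes were called. The higher calls among all genes were 3.78%, 1.03% and 3.22%, and the lower ones 2.93%, 1.94% and 4.26%, in the same order of comparisons. These calls rest on 1 RNA library per line, assumed to vary as little as the BJ footprint replicates. With the spread taken from all 26 cycloheximide and RNA libraries of both cell models, an alternative chosen after seeing the data, edgeR called 0 members in each comparison (1, 2 and 1 at an unadjusted p under 0.05), and DESeq2 on the BJ libraries called 2, 5 and 2.

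In the ER-Src cells no member was called in loading at 1, 4 or 24 h. By edgeR 0 of 9 were called at each time, with 0, 0 and 1 at an unadjusted p under 0.05 and 0 called by DESeq2, where 0%, 0% and 0.44% of all genes were called. At 24 h the loading of MMP14 differed by 0.04 ± 0.38, that of TIMP1 by -0.19 ± 0.28 and that of TIMP3 by -0.35 ± 0.35. The SE of TIMP1 and TIMP3 loading was thus larger here than between ELR and EL, where it was 0.18 and 0.21.

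**Figure D4:**
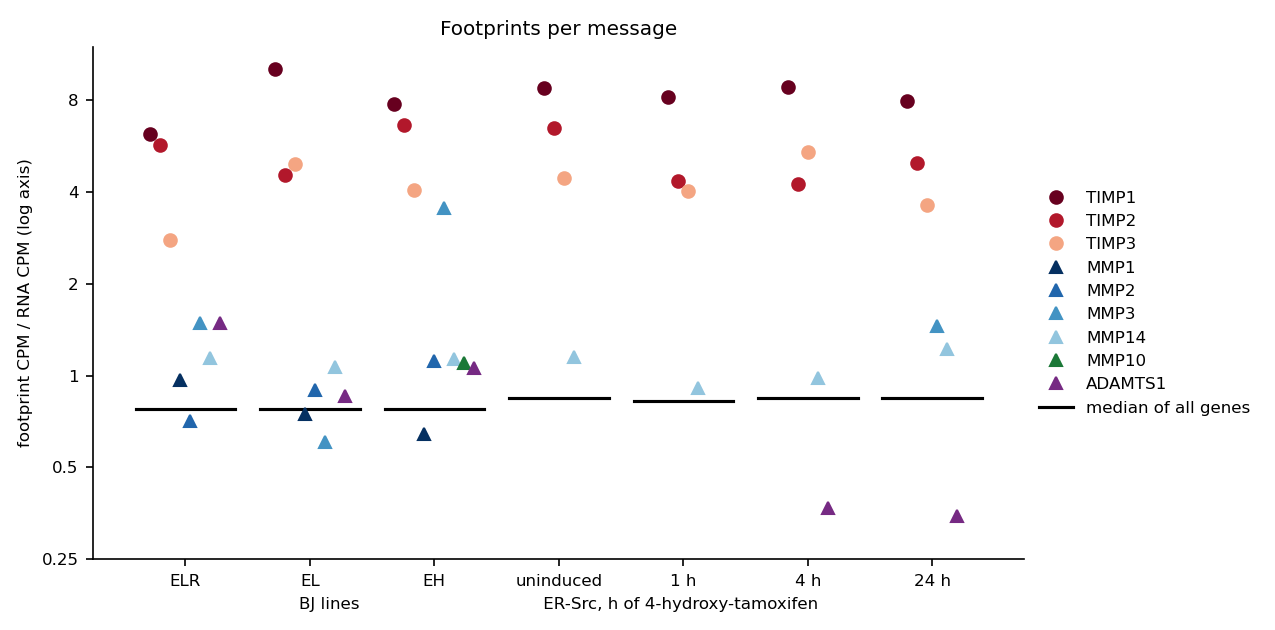
Footprint CPM divided by RNA CPM for each member with at least 10 CPM of RNA, on a logarithmic axis, in the BJ lines ELR, EL and EH and in the ER-Src cells, uninduced and after 1, 4 and 24 h of 4-hydroxy-tamoxifen; circles are inhibitors, triangles are proteases and black lines are the medians of all genes. TIMP1 lies between 6.21 and 10.1, above the other members in each of the 7 groups.

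Footprints per message, a ratio of levels, were higher for the inhibitors than for the proteases in each group, among members with at least 10 CPM of RNA. TIMP1 had 6.21 footprint CPM per RNA CPM in ELR, 10.1 in EL and 7.75 in EH, and between 7.95 and 8.86 in the ER-Src groups. The median of all genes with at least 10 CPM of RNA lay between 0.775 and 0.845. TIMP1 was at the 97.7th, 99.2nd and 98.6th percentile of those genes in ELR, EL and EH. TIMP2 lay between 4.25 and 6.62 and TIMP3 between 2.78 and 5.41 over the 7 groups, with under 20 CPM of TIMP2 RNA in the ER-Src cells. MMP14 lay between 0.909 and 1.22. MMP1 was at 0.970 in ELR, 0.749 in EL and 0.641 in EH, and MMP3 at 1.48, 0.604 and 3.55 in the same lines. The inhibitors have short coding regions, and short genes had higher ratios: among the 885 to 931 genes with coding regions of 500 to 800 bases the median was 1.34 to 1.61. Within those genes TIMP1 was between the 95.3rd and 98.9th percentile, TIMP2 between the 89.4th and 96.2nd and TIMP3 between the 79.2nd and 94.2nd.

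Harringtonine gave a separate set of footprints from the same lines, at lower depth. In EL against EH, 7 of 8 tested members fell, where 18.5% of all 3553 genes tested were called (7.57% higher, 11% lower). TIMP2 was not called (-0.30 ± 0.29, edgeR adjusted p = 0.529). MMP2 and MMP3 passed the filter here only through their EH libraries, so their falls followed from that filter. In ELR against EL, 3 of 8 members were called, where 16.3% of all genes were (6.39% higher, 9.91% lower). MMP1 rose by 1.97 ± 0.10 (edgeR adjusted p = 2.01e-86), with 2947 and 2780.2 CPM in ELR against 668 and 795 CPM in EL. ADAMTS1 fell by 1.87 ± 0.18 (edgeR adjusted p = 5.49e-22), with 202 and 152 CPM in ELR against 617 and 669 CPM in EL. MMP2 was also called lower (-1.84 ± 0.68, edgeR adjusted p = 0.0434), but from 2 and 3 counts in ELR against 12 and 3 counts in EL, and without the first EL replicate the change was -0.56 (edgeR adjusted p = 0.826).

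Levels under harringtonine relative to cycloheximide, in separately scaled libraries, differed between members, and these differences were not tested. The ratio of harringtonine to cycloheximide CPM was 2.20 in ELR, 2.52 in EL and 2.00 in EH for ADAMTS1, and 0.266, 0.290 and 0.257 for TIMP1, where the median of all genes was 0.763, 0.805 and 0.725. MMP1 lay at 0.552, 0.544 and 0.421 and MMP14 at 1.30, 1.54 and 0.989 in the same order. Since the counts are sums over transcripts, these ratios are not heights of peaks at start codons. In the ER-Src cells 1 harringtonine library per time gave no replicate check. TIMP1 was at 820.2, 828, 1253 and 2528 CPM at 0, 1, 4 and 24 h, and MMP14 at 421, 435, 490.4 and 921 CPM. TIMP3 was at 221, 141, 60.5 and 57.7 CPM. The ratio of 24 h to 0 h was 3.08 for TIMP1 (95% counting interval 2.60 to 3.68) and 2.19 for MMP14 (1.71 to 2.83), and 0 h was 3.83 times 24 h for TIMP3 (2.23 to 6.76). In all, 5 of 8 members with at least 10 CPM in either library differed by at least 2-fold, 4 higher and 1 lower at 24 h. Of all genes 28.8% did (18.5% higher, 10.3% lower). The higher members included MMP1, with 4 counts at 24 h against 0 at 0 h, and MMP3, with 12 against 0. In this pair of libraries both reached 10 CPM only at 24 h, so they could count only as higher. Total counts in these libraries ranged from 163092 to 374359.

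**Figure D5:**
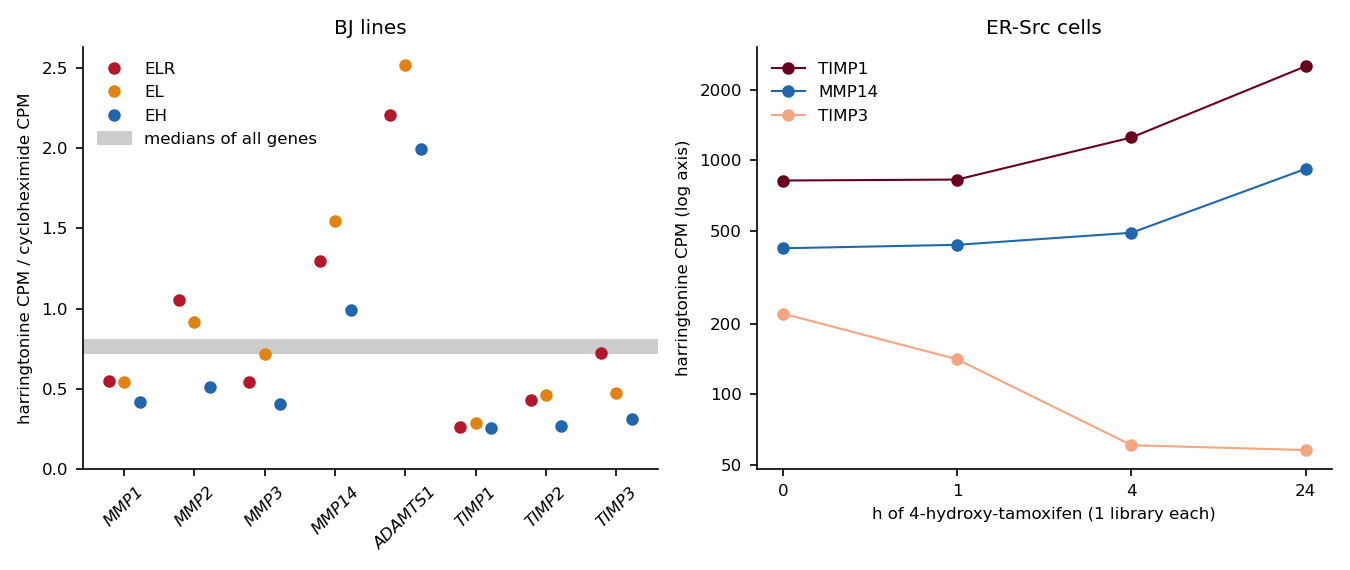
Left, harringtonine CPM divided by cycloheximide CPM for 8 members in ELR, EL and EH, with the range of the medians of all genes in grey; right, harringtonine CPM of TIMP1, MMP14 and TIMP3 in ER-Src cells at 0, 1, 4 and 24 h of 4-hydroxy-tamoxifen on a logarithmic axis, with 1 library per time. ADAMTS1 lies between 2.00 and 2.52 on the left, and on the right TIMP1 and MMP14 are highest and TIMP3 is lowest at 24 h.

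Levels were compared between genes per kilobase of coding sequence. In the cycloheximide footprints of ELR, MMP1 came first at 3685 ± 44.6 CPM per kilobase, ahead of TIMP1 at 884 ± 27.9 and TIMP2 at 469 ± 9.71 (SD, n = 2). In EL, MMP1 at 955 ± 29.3 was followed by TIMP1 at 683 ± 14 and TIMP2 at 593 ± 9.87, which did not overlap. In EH the order was TIMP1 at 3008 ± 73.8, MMP1 at 2368 ± 5.97, TIMP3 at 1974 ± 79.5 and TIMP2 at 1190.0 ± 8.31. In the ER-Src cells TIMP1 led at every time, with 9138 ± 824 CPM per kilobase at 24 h (SD, n = 2) against 4221 ± 722 uninduced (SD, n = 4). The other inhibitors and MMP14 followed there, between 69.8 and 305 CPM per kilobase at 24 h and between 104 and 151 uninduced. Among these, the uninduced level of MMP14 (108 ± 28.4) had a spread that overlapped those of TIMP3 (151 ± 26.7) and TIMP2 (104 ± 15.4). MMP1, MMP2, MMP3, MMP9, MMP10 and ADAMTS1 stayed under 16 CPM per kilobase of cycloheximide footprints in every group mean of the ER-Src cells.

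Set directly against EH fibroblasts in 1 fit of 16 cycloheximide libraries, uninduced ER-Src cells differed in all 10 members, where 59.1% of all genes were called, and cell type and cell model cannot be told apart. MMP2 and MMP10 passed the filter only through BJ libraries and MMP9 only through ER-Src libraries. Their directions thus followed largely from the filter. Lower were MMP1 (-13.01 ± 0.24), MMP2 (-8.37 ± 0.20), ADAMTS1 (-8.25 ± 0.18), MMP3 (-7.67 ± 0.35), MMP10 (-5.73 ± 0.46), TIMP3 (-3.80 ± 0.13), TIMP2 (-3.60 ± 0.12) and MMP14 (-1.29 ± 0.18). TIMP1 was higher by 0.42 ± 0.14 (edgeR adjusted p = 0.0122). MMP9 was also higher, with 35 footprint counts over the 4 uninduced ER-Src libraries and none over the 2 EH libraries, at least 2.59-fold when EH is set to 3 counts for the whole group. Both of these calls were lost without either EH replicate, with edgeR adjusted p of 0.0757 and 0.0511 for TIMP1 and 0.158 and 0.123 for MMP9.

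By the root mean square difference of log2(CPM + 1) over the 16 cycloheximide libraries, centred within each cell model, the genes nearest to TIMP2 among 10935 searched were ITGB1 (0.09) and CD81 (0.12). TUBB3 was nearest to both TIMP1 (0.22) and MMP14 (0.24), and TIMP1 was the next nearest to MMP14 (0.28). For ADAMTS1 they were CACNA1C (0.30) and EFS (0.30), for TIMP3 NPR3 (0.32) and COL4A1 (0.33), for MMP2 LMOD1 (0.38) and SPHKAP (0.38), and for MMP10 PODN (0.33) and KCNN2 (0.40). MMP9 was nearest to PIK3CD (0.46) and DHRS11 (0.48). MMP1 and MMP3 had no close neighbour: the nearest were GK (0.59) and GSDMA (0.63) for MMP1 and IL13RA2 (0.60) and MFAP5 (0.91) for MMP3. GSDMA had a mean of 0 CPM in the BJ lines. LMOD1, SPHKAP, PODN, KCNN2 and EFS had a mean of 0 CPM in the ER-Src cells. Such genes can share a member's pattern in the other cell model only. The points of this comparison share libraries and depth, and the distances carry no test.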

How the data were processed

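Per the submitters' processing notes, the authors aligned reads with TopHat to hg19 (versions not given in the sources used here) and deposited read counts per RefSeq transcript, unnormalized, with 1 table per library. The program and the region counted are not given in the sources used here. From these counts, 1 transcript per gene was kept, that with the highest mean over the 36 libraries, and library sizes were scaled by TMM. Genes passing edgeR's filter (minimum count 10, minimum total 15) were tested with edgeR 4.0.16 (quasi-likelihood, Benjamini-Hochberg adjustment within each of 19 comparisons, threshold 0.05) in R 4.3.3 with limma 3.58.1. Footprint and RNA fits held the libraries of 1 cell model and assay. Loading fits held the cycloheximide and RNA libraries of 1 cell model. The comparison of cell models held all 16 cycloheximide libraries. Uninduced libraries were pooled. Ribosome loading was the interaction of group and assay. Groups of 1 library were compared as log2 ratios of CPM + 1. All 10 members are named. Of other lists, at most 3 genes with the smallest adjusted p per comparison are named. Members and lists were chosen with earlier results of these data known. Alternatives were DESeq2 1.42.0, other scaling and filters, other uninduced libraries, a replicate block and leaving out each library. The fits were tested on simulated data. Total counts per library, which limit precision, are given with the results. Coordinates come from GENCODE release 44 on GRCh37, and promoters from RefSeq on GRCh38.p14.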

Additional observations from a re-analysis of the deposited data

Results flagged for a closer look

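MMP14 RNA stood out in 1 uninduced ER-Src library, that of 24 h of ethanol, with 97.0 CPM against 184 to 189 CPM in the other 3. This was 1 of 20 groups of 4 libraries examined, and chance gives about 1 in 20. MMP14 footprints of the 24 h ethanol library were also the lowest uninduced value, at 118 CPM against 191 to 228 CPM. Without that footprint library, MMP14 still rose at 24 h of induction by 1.31 (edgeR adjusted p = 4.62e-06), and without that RNA library by 1.23.

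The footprint changes at 24 h and at 1 h of Src induction differed for 3 members when the difference itself was tested by edgeR. It was 1.46 for MMP14, 0.84 for TIMP1 and -1.27 for TIMP3 on the log2 scale. Both libraries of 24 h lay beyond both libraries of 1 h in that direction for each of the 3. These members were picked by that test on the same libraries, so the separation is no further support. The share of all genes with such a separation was not counted.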

How the results depend on the processing

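Under alternatives other than leaving out a library, 753 values of single members kept their direction and their side of the threshold, 34 lost a call, 5 gained one and 10 turned direction. With the 0 h library as the uninduced group, 3 members were called in footprints and 0 in RNA at 24 h, and with the 24 h ethanol library alone, an alternative chosen after seeing the data, 4 were called in RNA. DESeq2 called 1 member in RNA at 24 h, and 2 in loading for EL against EH and 2 for ELR against EH. The all-library fits left 4 members in ELR against EL footprints and 0 in each loading comparison. Deviations of same-numbered BJ replicates had correlations of -0.00923 to 0.0344. In the ER-Src cycloheximide libraries they were 0.157 (1 and 4 h), 0.0405 (1 and 24 h) and 0.177 (4 and 24 h). Replicate number is not balanced in the uninduced cycloheximide group, where the 0 h library is replicate 1 and the ethanol libraries are replicate 2. The replicate block called 1 member at 4 h, TIMP3 (-0.70, edgeR adjusted p = 0.0257), 4 rather than 3 for 24 h against 1 h, and 2 rather than 3 for harringtonine ELR against EL. It changed no other count of members.

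Values that turned direction were near 0 or uncalled, and the cause was not tested. They were MMP14 loading in ELR against EH (0.00338 by DESeq2, 0.00478 by RLE scaling, 0.0751 over all 26 libraries) and at 24 h of Src (-0.0358 with ethanol libraries, -0.0707 with that of the same hour). They were also TIMP2 footprints at 24 h (-0.029 with the block, -0.19 against 0 h), TIMP3 at 1 h (-0.22 against 0 h), MMP9 footprints at 24 h (1.47) and MMP2 RNA at 24 h (0.82), the last 2 against the same-hour ethanol library. Leaving out single libraries gave ranges that crossed 0 for MMP3 (-0.0398 to 0.187) and MMP10 (-1.23 to 2.92) in ELR against EL, for harringtonine TIMP2 in EL against EH (-0.665 to 0.0674) and MMP3 in ELR against EL (-0.627 to 0.0839), and for MMP10 loading (-0.29 to 4.06 in EL against EH, -1.24 to 3.10 in ELR against EL). In the Src cells they did so for TIMP2 at 24 h (-0.18 to 0.28), ADAMTS1 (-0.0894 to 0.462) and TIMP2 (-0.375 to 0.0817) at 24 h against 1 h, and MMP14 loading (-0.13 to 0.23). Members called ranged from 4 to 5 at 24 h, 2 to 5 for 24 h against 1 h, 2 to 3 in RNA at 24 h, 2 to 3 in harringtonine ELR against EL, 3 to 4 and 2 to 5 in loading of EL and ELR against EH, and 8 to 10 between the cell models.

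Counts over all genes moved more. DESeq2 called 2461 against 4149 genes in EL against EH footprints and 1822 against 3611 in ELR against EL, 255 against 659 and 187 against 579 under harringtonine, and 237 against 744, 104 against 329 and 292 against 829 in loading of EL against EH, ELR against EL and ELR against EH. In Src cells it called 8 against 2 (footprints, 1 h), 4 against 1 (RNA, 1 h), 447 against 687 (RNA, 24 h) and 76 against 49 (loading, 24 h). Without a filter, footprints gave 22 at 1 h and 175 against 87 at 4 h, and RNA 6 at 1 h and 35 against 17 at 4 h. The block gave 4 at 1 h. Ethanol libraries gave 55 (footprints, 4 h) and 0 and 10 (RNA, 1 and 4 h). The 0 h library gave 0, 0 and 508 against 1492 at 1, 4 and 24 h in footprints, 2 and 287 at 4 and 24 h in RNA and 0 in loading at 24 h. Same-hour ethanol gave 0, 0 and 789 in footprints, 0 and 3 in RNA at 1 and 4 h and 0 in loading at 24 h. The all-library fits gave 2608 (EL against EH) and 1781 (ELR against EL) in footprints and 7, 2 and 60 in loading. Leaving out 1 library gave 764 and 703 genes in footprints at 24 h without the first and second 24 h replicates. In RNA at 24 h it gave 365, 440 and 1595 without the ethanol libraries of 1, 4 and 24 h. Harringtonine EL against EH gave 405 and 430 without EH replicates 1 and 2 and 414 without EL replicate 1, and ELR against EL gave 365 and 371 without EL replicates 1 and 2 and 346 without ELR replicate 2. Loading gave 188 and 210 in ELR against EL without ELR footprint replicates 1 and 2, 543 in ELR against EH without ELR replicate 1, and 11 and 31 at 24 h of Src without the first 24 h footprint replicate and the 4 h ethanol RNA library. The small counts at 1 and 4 h ranged from 0 to 6 and 9 to 82 in footprints and from 0 to 15 and 4 to 99 in RNA. Depth limits MMP2, MMP9 and MMP10 in ER-Src cells and MMP9 and MMP10 in ELR and EL.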
